A study of Mus musculus with 8 samples.

Results

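The genes described here are 10 regulators of apoptosis of the BCL2 family, and they were measured by RNA-seq in the lungs of mice with LPS-induced acute lung injury. They were taken by symbol from the table of read counts per gene, where 10 of 10 were found among 24584 genes. Male ICR mice 6 to 8 weeks old, labelled as wild type in genotype (spelled "widetype"), were used. The LPS group, with 4 lung samples, received lipopolysaccharide of Escherichia coli O111:B4, the endotoxin of the outer membrane of this bacterium, at 5 mg/kg into the peritoneum. The LPS + Tan group, also with 4 samples, received the same LPS after tangeretin, a flavone of citrus peel, at 50 mg/kg by the same route 30 min earlier. Lung tissue was taken 12 h after LPS in both groups. Every mouse had been given LPS, and no untreated group was analysed here, so the values show what tangeretin pretreatment changed in the injured lung and not what LPS itself changed. The study asked whether tangeretin eases the injury, and the apoptosis regulators were compared beside that question.

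Proteins of the BCL2 family decide at the mitochondrial outer membrane whether a cell enters the intrinsic pathway of apoptosis. BAX and BAK are the effectors, which oligomerize, open pores and release cytochrome c. BCL2, BCL-XL (the product of Bcl2l1), MCL1 and A1 (the product of the Bcl2a1 genes in mice) are the pro-survival members, which bind and restrain the effectors and their activators. The BH3-only proteins BIM (Bcl2l11), BID, PUMA (Bbc3) and NOXA (Pmaip1) report stress to the other members by inserting a short helix, the BH3 domain, into a groove on their surface. In inflamed tissue MCL1 and A1 are known for keeping neutrophils and other short-lived leukocytes alive.

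The BH3 domain is the sequence that ties these genes into one family, and its core is shown so that the members can be compared before their values are given. The coding sequence of each gene (GENCODE M21, GRCm38) was searched for the codons of a leucine, any 3 residues, a glycine or alanine, and an aspartate. Of 9 members searched, 8 held this pattern exactly once, and it was not found in Bcl2a1b or its paralogs. Pmaip1 was not searched. Each line gives 30 bases, 5′ to 3′ on the coding strand, with the codon of the leucine and those of the last 2 residues of the pattern in capitals.
Bcl2: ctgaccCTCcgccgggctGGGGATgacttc
Bcl2l1: caagcgCTGagagaggcaGGCGATgagttt
Mcl1: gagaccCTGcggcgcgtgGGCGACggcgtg
Bax: gagtgtCTCcggcgaattGGAGATgaactg
Bak1: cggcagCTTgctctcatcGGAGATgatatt
Bid: agacatCTCgcccaaataGGCGATgagatg
Bbc3: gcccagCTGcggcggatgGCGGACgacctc
Bcl2l11: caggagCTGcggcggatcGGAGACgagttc
The pattern in capitals is what the search asked for. Alanine took the place of glycine in Bbc3 only.

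All 10 members lie on the assembled chromosomes of GRCm38. Bcl2l1 (chr2:152780668-152831728, minus strand) and Bcl2l11 (chr2:128126038-128162547, plus strand) share a chromosome. Mcl1 lies at chr3:95658788-95663176 (plus strand), Bcl2 at chr1:106538178-106714274 (minus strand) and Bcl2a1b at chr9:89199209-89207827 (plus strand). Bax (chr7:45461697-45466898, minus strand) and Bbc3 (chr7:16308393-16318205, plus strand) are on chromosome 7, Bak1 is at chr17:27019810-27029009 (minus strand), Bid is at chr6:120891930-120916853 (minus strand), and Pmaip1 is on chromosome 18. Counts were given per gene, so that splice forms were pooled. This matters for Bcl2l1, Mcl1 and Bcl2l11, whose long and short forms are known to differ in their action on apoptosis. In the annotation, Bid overlapped Bcl2l13 and Bak1 overlapped Ggnbp1 on the opposite strand, and Bax and Bcl2a1b overlapped the gene models Gm45808 and Gm29094 on their own strand. Bcl2 overlapped Gm37053 and Mir3473f on its own strand and D630008O14Rik on the opposite strand, and Bid also overlapped Gm44260 on its own and Gm17812 on the opposite strand. These overlaps are of whole gene spans, and whether exons overlap was not checked. Whether reads were counted by strand is not given in the sources used here. How many reads, if any, these genes share is therefore not known.

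The total count lay between 38895654 and 39931970 reads in the 8 libraries, and 15706 genes with enough counts for a test were kept, among them all 10 members. Levels are given as CPM, the count of a gene scaled to the total count of its library and by edgeR's TMM factors, which were 0.959 to 1.05. Markers of lung and blood cells were read first. Of the lists of 14 neutrophil, 12 macrophage, 10 B cell, 13 T and NK cell, 10 endothelial, 10 alveolar epithelial, 10 fibroblast and mural, and 5 erythroid markers, every gene passed the filter on low counts and none was at 0 in both groups. At an unadjusted p below 0.05, 1 macrophage marker (C1qa, log2 fold change 0.28) and 2 endothelial markers (Kdr, 0.37, and Tek, 0.51), named after their values were seen, were higher, beside 2.87% of all genes, and 0 markers of any list were lower in LPS + Tan lungs. The summed CPM of the lists overlapped between the groups, with 4936 to 6802 in LPS and 4685 to 6473 in LPS + Tan lungs for neutrophil markers, 1595 to 2633 and 1647 to 2663 for macrophage markers, 8278 to 12150 and 8384 to 13430 for alveolar epithelial markers, and 3847 to 4721 and 4456 to 4821 for endothelial markers. The endothelial list had 6 positive and 4 negative log2 fold changes, with a median of 0.097. Of the B cell markers 9 of 10 had a negative log2 fold change, with a median of -0.31 and a summed CPM of 37.0 to 60.2 in LPS and 30.5 to 46.1 in LPS + Tan lungs. Of the erythroid markers 5 of 5 were negative, with a median of -0.55 and a summed CPM of 1415 to 3427 and 1315 to 2133. In bulk lung tissue, fewer cells of a type and less RNA per cell cannot be told apart.

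None of the 10 members passed the test for a difference between LPS + Tan and LPS lungs. At an unadjusted p below 0.05 in the edgeR quasi-likelihood test, 0 of 10 were called, beside 5.12% of all tested genes (804 of 15706). When an absolute log2 fold change above 1 was also asked for, 0 of 10 members were called beside 0.649% of all genes. At an adjusted p below 0.05, 0 members and 0 of all genes were called by edgeR, and DESeq2, which called 35 genes, also called 0 members. Of the members, 4 had a positive and 6 a negative log2 fold change of LPS + Tan against LPS, with a median of -0.074 beside 0.007 over all tested genes. The median size of the change, in either direction, was 0.118 on the log2 scale for the members and 0.107 for all genes. The groups did not separate without overlap for any member, which they did for 2.73% of all genes. The 95% intervals of the fold reached from 0.642 at the lowest (Pmaip1) to 1.43 at the highest (Bbc3), so that larger changes of any member lay outside them. The standard deviation of log2 CPM within groups had a median of 0.178 over the members and 0.210 over all genes. The labels do not say whether the 4 samples of a group came from separate mice, so p-values measure only the spread between these samples, which may be technical.

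**Figure D1:**
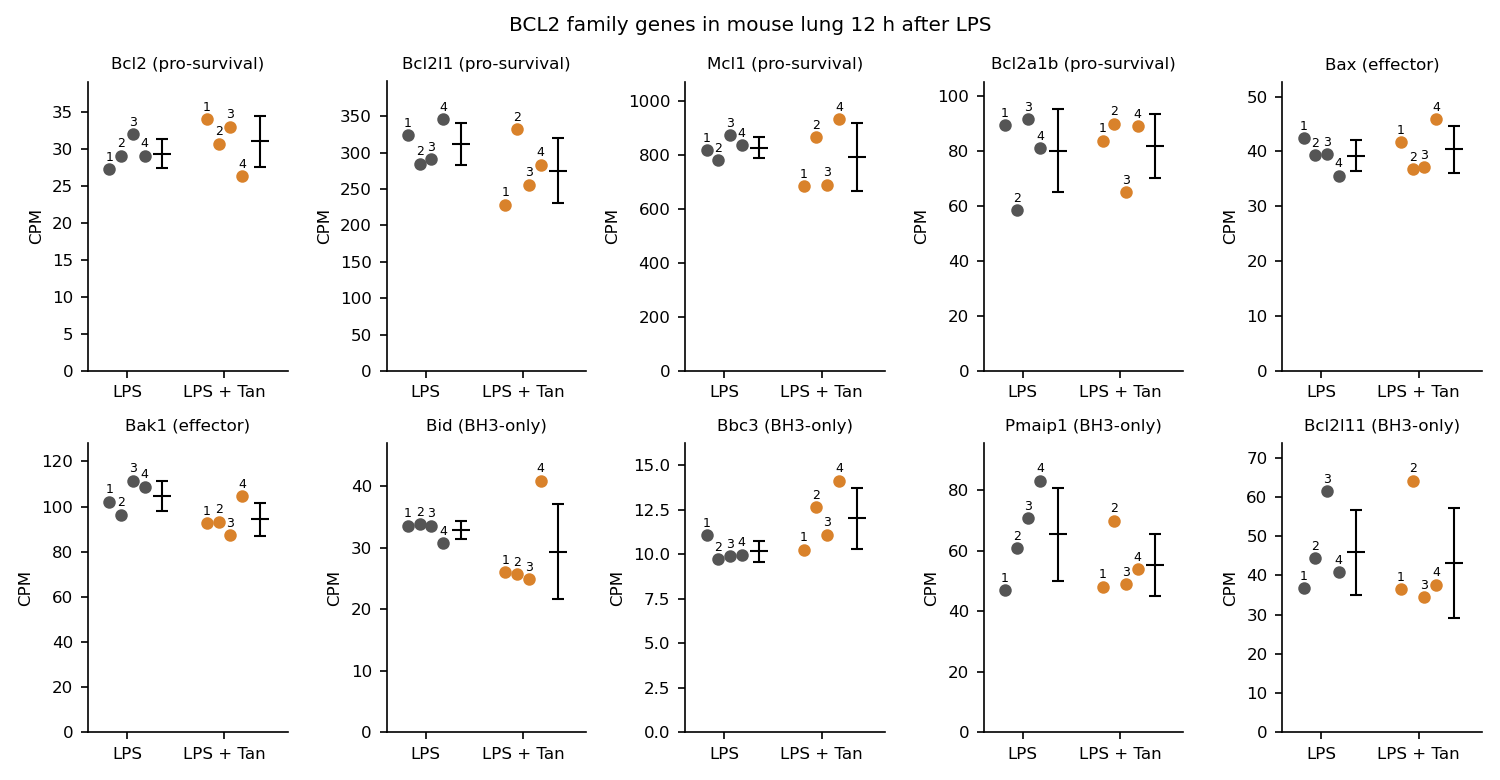
CPM (linear axis from 0) of the 10 members in each lung sample, with replicates numbered 1 to 4 and the mean ± SD (n = 4) drawn to the right of each group. The points of LPS (grey) and LPS + Tan (orange) overlap for every member, and for Bid the sample LPS + Tan 4 stands at 40.8 above the other 7, which lie between 24.8 and 33.8.

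**Figure D2:**
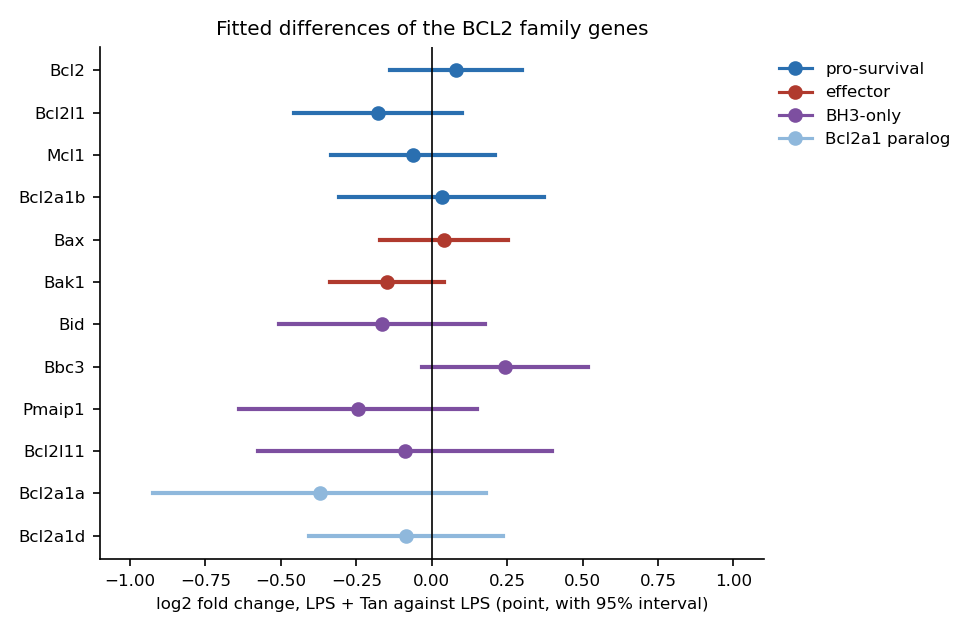
Log2 fold change of LPS + Tan against LPS by edgeR, with its 95% interval, for the 10 members and the paralogs Bcl2a1a and Bcl2a1d (n = 4 per group). Every interval includes 0, and the narrowest, of Bak1, runs from -0.34 to 0.040.

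The pro-survival genes were examined first. Bcl2, which gave the family its name after its discovery at a lymphoma translocation, was measured at 27.3, 29.2, 32.0 and 29.2 CPM in the LPS samples and at 34.1, 30.7, 33.1 and 26.4 CPM in the LPS + Tan samples. The LPS + Tan group held both the highest and the lowest value of Bcl2. Its log2 fold change was 0.079 (SE 0.098, 95% interval -0.14 to 0.30, adjusted p = 0.972). It was 0.15 without LPS + Tan sample 4 and 0.030 without LPS + Tan sample 1, and neither passed the threshold.

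Bcl2l1, which encodes BCL-XL, had 324, 285, 291 and 346 CPM in LPS and 229, 333, 256 and 284 CPM in LPS + Tan lungs. The LPS + Tan samples 1, 3 and 4 were below every LPS sample, and sample 2 was above all but LPS sample 4. Over all 8 samples the log2 fold change was -0.18 (SE 0.125, 95% interval -0.46 to 0.099, adjusted p = 0.933). Without LPS + Tan sample 2 it was -0.28 and past the unadjusted threshold of 0.05, with an adjusted p of 0.428 by edgeR. It was -0.10 without LPS + Tan sample 1 and -0.12 without LPS sample 4.

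Mcl1, the product of which turns over within hours and guards granulocytes and lymphocytes, was measured at 816, 780, 872 and 836 CPM in the LPS group. In the LPS + Tan group it was measured at 683, 864, 689 and 931 CPM, with samples 1 and 3 below and sample 4 above the whole LPS range. The means were 826 ± 38.6 and 792 ± 125 CPM (SD, n = 4), and the log2 fold change was -0.061 (SE 0.122, 95% interval -0.33 to 0.21, adjusted p = 0.982). Without LPS + Tan sample 1 it was 0.0023, and without LPS + Tan sample 4 it was -0.15.

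Bcl2a1b is one of several near-identical mouse copies of the A1 gene, which is induced by inflammatory signals in neutrophils and macrophages. It had 89.5, 58.6, 91.6 and 81.0 CPM in LPS and 83.8, 90.0, 65.0 and 89.2 CPM in LPS + Tan lungs. Every LPS + Tan value lay inside the LPS range, and the log2 fold change was 0.033 (SE 0.153, 95% interval -0.31 to 0.37, adjusted p = 0.997). It turned to -0.096 without LPS sample 2, and to -0.015 and -0.010 without LPS + Tan sample 2 or 4.

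Because reads can be split between the A1 copies, their sequences were compared. Bcl2a1b, Bcl2a1a and Bcl2a1d each have 519 coding bases including the stop codon. Bcl2a1b differed from Bcl2a1a at 11 of them (97.9% identity) and from Bcl2a1d at 6 (98.8% identity), and Bcl2a1a differed from Bcl2a1d at 7 (98.7% identity). The longest run without a difference was 217 bases between Bcl2a1b and either copy and 314 bases between the other pair. The first 60 coding bases, 5′ to 3′, are a stretch of this length with the most differences, and the 6 positions that differ among the 3 genes are in capitals.
Bcl2a1b: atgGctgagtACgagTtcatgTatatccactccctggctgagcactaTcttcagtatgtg
Bcl2a1a: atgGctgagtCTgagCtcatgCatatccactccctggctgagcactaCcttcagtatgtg
Bcl2a1d: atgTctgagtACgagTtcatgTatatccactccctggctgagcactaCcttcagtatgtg
The sequences are those of the reference strain, and the mice were of an outbred stock. How reads matching several copies were counted is not given in the sources used here, so the split of counts between the copies is uncertain and their sum is less so.

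Bcl2a1b took 78.6%, 64.9%, 67.8% and 76.2% of the summed counts of the Bcl2a1 genes in LPS samples and 75.8%, 76.1%, 70.6% and 76.0% in LPS + Tan samples. Bcl2a1a was measured at 7.72, 12.3, 16.5 and 6.90 CPM in LPS and at 8.61, 7.91, 8.70 and 8.37 CPM in LPS + Tan lungs. The LPS values of Bcl2a1a spread over a wider range, which held all 4 LPS + Tan values, and the log2 fold change was -0.37 (SE 0.248, 95% interval -0.92 to 0.18, adjusted p = 0.931). With 1 sample left out it ranged from -0.54, past the unadjusted threshold without LPS sample 4, to -0.097, with adjusted p of 0.725 or more in every alternative by edgeR, DESeq2 or limma. Bcl2a1d had a log2 fold change of -0.086 (SE 0.144, adjusted p = 0.982), which was -0.17 without LPS sample 1 and 0.080 without LPS sample 3. Bcl2a1c was counted at 0 in all 4 LPS samples and at 2, 1, 0 and 0 reads in the LPS + Tan samples and was not tested. When the counts of the copies were summed, the log2 fold change was -0.023, opposite in sign to that of Bcl2a1b alone and again not past the threshold.

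Of the effectors, Bax was measured at 42.5, 39.3, 39.5 and 35.6 CPM in LPS and at 41.7, 36.8, 37.2 and 45.9 CPM in LPS + Tan lungs. LPS + Tan sample 4 was the highest of the 8 and LPS sample 4 the lowest, with all others in between. The log2 fold change of Bax was 0.042 (SE 0.095, 95% interval -0.17 to 0.25, adjusted p = 0.985), and it was -0.025 without LPS + Tan sample 4.

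Bak1, which encodes the effector that sits in the outer membrane of mitochondria also in healthy cells, had 102, 96.4, 111 and 109 CPM in LPS lungs. It had 92.6, 93.3, 87.3 and 105 CPM in LPS + Tan lungs. LPS + Tan samples 1 to 3 were below every LPS sample, and all 4 were below the median of the LPS group. Bak1 varied least among the members, with a coefficient of variation of 7.06% within groups. The log2 fold change was -0.15 (SE 0.084, 95% interval -0.34 to 0.040, adjusted p = 0.926). Without LPS + Tan sample 4 it was -0.20 and past the unadjusted threshold, with an adjusted p of 0.459 by edgeR.

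Among the BH3-only genes, Bbc3 had the lowest p of the 10 members. It encodes PUMA, a target of p53 that binds all the pro-survival proteins. Bbc3 had 11.1, 9.75, 9.90 and 9.98 CPM in LPS and 10.3, 12.7, 11.1 and 14.1 CPM in LPS + Tan lungs. LPS + Tan samples 2 to 4 were above every LPS sample, sample 3 by a small margin, and sample 1 was inside the LPS range. The means were 10.2 ± 0.605 and 12.04 ± 1.72 CPM (SD, n = 4). The fold was 1.18 (95% interval 0.978 to 1.43), with a log2 fold change of 0.24 (SE 0.123, adjusted p = 0.924). It was past the unadjusted threshold without LPS + Tan sample 1, at 0.31, and when only total counts were used for scaling, but the adjusted p by edgeR, DESeq2 and limma was 0.639 or more in every alternative. Without LPS + Tan sample 4 the log2 fold change was 0.16. Bbc3 was also the member with the fewest counts, and counting error alone gives a coefficient of variation of 4.78%, beside 11.6% between samples of a group.

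Bid encodes the link from death receptors to mitochondria, which caspase 8 cleaves. It was measured at 33.6, 33.8, 33.5 and 30.7 CPM in the LPS group and at 26.1, 25.6, 24.8 and 40.8 CPM in the LPS + Tan group. LPS + Tan samples 1 to 3 lay close together below all LPS samples, and sample 4 lay above all of them. Over all samples the log2 fold change of Bid was -0.17 (SE 0.153, 95% interval -0.51 to 0.18, adjusted p = 0.957). Without LPS + Tan sample 4 it was -0.37 (SE 0.0715) and past the unadjusted threshold, with an adjusted p of 0.176 by edgeR. It was -0.096 without LPS + Tan sample 3 and -0.11 without LPS + Tan sample 2. LPS + Tan sample 4 also stood at the end of the range of several marker lists. Its mean log2 CPM was the highest of the 8 samples for alveolar epithelial markers (9.14, beside 8.75 to 9.08 in the others). It was the lowest for B cell markers (1.23, beside 1.60 to 2.37), for T and NK cell markers (2.22, beside 2.25 to 3.19) and for fibroblast and mural markers (6.44, beside 6.58 to 6.85). Over the 8 samples, Pearson's r of Bid was -0.377 with B cell markers (permutation p = 0.363, adjusted 0.925). With T and NK cell markers it was -0.482 (permutation p = 0.227, adjusted 0.925). The other lists named here were not compared with Bid in this way. The part of these cell types in the value of Bid in LPS + Tan sample 4 was not tested.

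**Figure D3:**
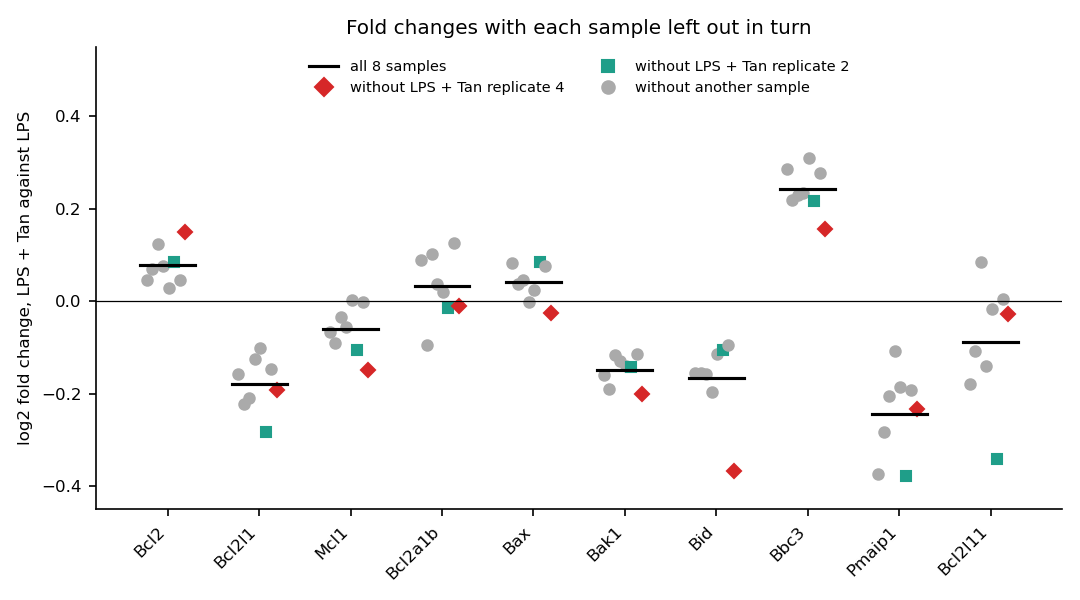
Log2 fold change of LPS + Tan against LPS by edgeR for each member with each of the 8 samples left out in turn (points) and with all samples (black lines). Bcl2l11 moves furthest from its line, from -0.088 to -0.34 without LPS + Tan sample 2 (green square), and Bid moves from -0.17 to -0.37 without LPS + Tan sample 4 (red diamond).

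Pmaip1, which encodes NOXA, a BH3-only protein that binds MCL1 and A1 and targets MCL1 for degradation, was measured at 47.1, 60.8, 70.9 and 83.2 CPM in LPS lungs. It had 48.2, 70.0, 48.9 and 54.0 CPM in LPS + Tan lungs, all inside the LPS range, and 3 of 4 were below the LPS median. Its log2 fold change was the most negative of the members, -0.24 (SE 0.177, 95% interval -0.64 to 0.15, adjusted p = 0.936). Without LPS sample 1, the lowest of that group, it was -0.37 and past the unadjusted threshold, with an adjusted p of 0.877 by edgeR, and without LPS sample 4, the highest, it was -0.11.

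Bcl2l11, which encodes BIM, the main killer of leukocytes deprived of survival factors, varied most, with a coefficient of variation of 28.1% within groups. It had 36.8, 44.4, 61.4 and 40.8 CPM in LPS and 36.5, 64.1, 34.5 and 37.6 CPM in LPS + Tan lungs. One sample of each group, LPS 3 and LPS + Tan 2, stood above the other 6, which lay between 34.5 and 44.4 CPM. The log2 fold change was -0.088 (SE 0.219, 95% interval -0.58 to 0.40, adjusted p = 0.986). It was -0.34 without LPS + Tan sample 2 and 0.085 without LPS sample 3. LPS + Tan sample 2 also had the highest mean log2 CPM of T and NK cell markers, 3.19, whereas LPS sample 3 had 2.45, near the middle of the 8 samples. Over the 8 samples, Pearson's r of Bcl2l11 with these markers was 0.447 (permutation p = 0.26, adjusted 0.925). It was -0.215 without the 2 samples farthest from the median of the marker level. The part of these cells in the value of Bcl2l11 in single samples was not tested.

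The balance of opposing members within each sample was then compared, since a ratio of genes in the same library does not depend on how libraries are scaled. The ratio of Bcl2 to Bax counts, which is often read as a measure of readiness for apoptosis, was 0.642, 0.741, 0.810 and 0.819 in LPS and 0.817, 0.836, 0.889 and 0.575 in LPS + Tan samples. LPS + Tan sample 4 had the lowest ratio of all, sample 1 was just under the highest LPS value, and samples 2 and 3 were above it. The mean log2 ratio differed by 0.036 (exact two-sided permutation test over samples, p = 0.771), by -0.038 without LPS sample 1 and by 0.176 without LPS + Tan sample 4 (exact permutation p = 0.171). The ratio of Mcl1 to Pmaip1, its partner in degradation, was 17.3, 12.8, 12.3 and 10.1 in LPS and 14.2, 12.4, 14.1 and 17.2 in LPS + Tan samples. All LPS + Tan ratios were inside the LPS range (difference of log2 means 0.16, exact permutation p = 0.429). The difference was 0.30 without LPS sample 1 (exact permutation p = 0.0857) and 0.039 without LPS sample 4. For Bcl2l1 to Bak1, a pair that binds in healthy cells, the ratio was 3.18, 2.95, 2.61 and 3.18 in LPS and 2.47, 3.57, 2.93 and 2.71 in LPS + Tan samples. Both the highest and the lowest ratio were in the LPS + Tan group (difference of log2 means -0.038, exact permutation p = 0.771). The difference was 0.038 without LPS + Tan sample 1 and -0.139 without LPS + Tan sample 2. The p adjusted over the 3 ratios was 0.771 for each, and the smallest p that 4 against 4 samples can give is 0.0286.

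Per gene length, the levels of the members spanned a wide range that was much larger than any difference between the groups. On the deposited FPKM scale, which corrects the count for the length of the gene and the depth of the library, Bcl2a1b had the highest mean over the 8 samples (106 ± 14.7, SD), followed by Mcl1 (92.5 ± 7.77), Bcl2l1 (52.96 ± 6.58), Bak1 (49.6 ± 2.93) and Bax (42.3 ± 3.34). Pmaip1 (22.7 ± 4.72) and Bid (12.9 ± 1.98) came next. The lowest FPKM were those of Bcl2l11 (4.45 ± 1.11), Bcl2 (4.12 ± 0.462) and Bbc3 (2.77 ± 0.376). Of the 9 pairs of neighbours in this order, 6 kept it in every sample. Bcl2a1b was above Mcl1 in 7 of 8 samples, Bcl2l1 above Bak1 in 5 and Bcl2l11 above Bcl2 in 5, so these neighbours did not differ beyond their spread.

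**Figure D4:**
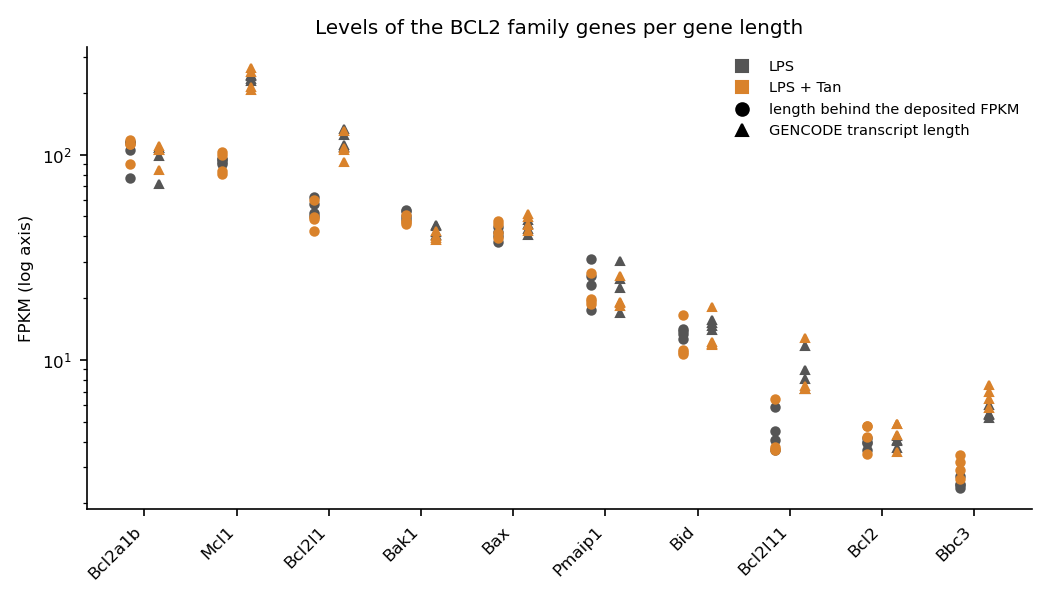
FPKM (log axis) of the 10 members in the 8 samples, as deposited (circles) and with the length of the GENCODE M21 transcript with the longest coding sequence in place of the deposited length (triangles), in the order of the deposited means. By their means, Mcl1 moves above Bcl2a1b, Bax above Bak1 and Bbc3 above Bcl2 with the GENCODE length, whereas Pmaip1 and Bid hardly move.

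The order at the top and parts of the order below it rested on the gene lengths behind the FPKM. For Mcl1, the ratio of counts to FPKM corresponds to a length of 8725 bases, whereas its longest coding transcript in GENCODE M21 has 3418 bases and the whole gene spans 4389 bases there and 6236 bases in RefSeq of GRCm38.p6. For Bbc3 the length was 4005 bases beside a transcript of 1814, for Bcl2l1 5528 beside 2568, and for Bcl2l11 9973 beside 5036. The union of all exons of GENCODE M21 came closer to the deposited length for Bcl2l1 (4586 bases) and Bcl2l11 (8029 bases), but not for Mcl1 (3418 bases). For the other 6 members the deposited and transcript lengths were much closer, for example 764 and 817 bases for Bcl2a1b and 7349 and 7191 for Bcl2. With the GENCODE transcript length, which was chosen after seeing the data, Mcl1 came first (236 FPKM), then Bcl2l1 (114) and Bcl2a1b (99.0). Bax (45.9) was above Bak1 (41.6), and Bcl2 came last (4.21) behind Bbc3 (6.12). With the union of exons Mcl1 was again first, but Bcl2a1b (99.0) was above Bcl2l1 (63.8), and Bak1 (41.3) was above Bax (25.2), as in the deposited order. The lengths are the same in all samples and do not enter the edgeR fits on counts.

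By role, the 4 pro-survival genes made up 65.0% ± 1.94 of the summed FPKM of the members in LPS lungs and 65.8% ± 1.54 in LPS + Tan lungs (SD, n = 4). The effectors made up 23.6% ± 1.25 and 23.7% ± 2.06, and the BH3-only genes 11.4% ± 1.40 and 10.5% ± 0.607. On the deposited lengths, each pair of means was closer than the larger SD of the pair. The shares themselves depended on the lengths. In LPS and LPS + Tan lungs the pro-survival share was 76.5% and 76.6% with the GENCODE transcript length and 78.5% and 79.0% with the union of exons. The effector share was 14.7% and 15.0%, or 13.1% in both groups. Under each length the groups differed by less than the larger SD.

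The rest of the apoptosis machinery was read from lists of genes. Of 18 other members of the BCL2 family, 15 were tested and 0 were called at an unadjusted p below 0.05 by edgeR, with 7 positive and 8 negative log2 fold changes and a median of -0.086. The lowest p among them was that of Bcl2l15, a little-studied relative expressed in epithelia of the gut, with 3.53, 5.90, 3.27 and 6.74 CPM in LPS and 3.001, 4.17, 1.70 and 3.74 CPM in LPS + Tan lungs (log2 fold change -0.62, SE 0.318, adjusted p = 0.924). It was followed by Bcl2a1a, described above. Bcl2l10, Hrk and Bcl2a1c had too few reads for a test, with at most 2 reads in any sample.

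Downstream of the mitochondria, 20 genes of the apoptosome, caspases, IAPs and mitochondrial death factors were tested, of which 1 was lower and 0 were higher at an unadjusted p below 0.05, beside 2.25% lower and 2.87% higher of all genes. The gene was Birc3, which encodes cIAP2, a ubiquitin ligase of TNF receptor signalling induced by NF-κB. Birc3 had 225, 258, 276 and 228 CPM in LPS and 184, 237, 186 and 198 CPM in LPS + Tan lungs, with only LPS + Tan sample 2 inside the LPS range. Its log2 fold change was -0.29 (SE 0.110, 95% interval -0.54 to -0.047, adjusted p = 0.924), so it failed the correction for all genes. The other 19 genes of the list did not pass the test, and the median of the list was -0.042.

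Of 12 genes of death receptor signalling, 0 were called, with a median log2 fold change of -0.025. The lowest p were those of Cflar, which encodes the caspase 8 inhibitor FLIP (-0.17, SE 0.092, adjusted p = 0.924), and of Ripk1, a kinase that sets the choice between survival and death at TNF receptor 1 (-0.16, SE 0.109, adjusted p = 0.931). Of 16 genes of p53 and its targets, 1 was lower and 0 were higher, with a median of -0.062. It was Gadd45a, a stress gene of DNA repair and growth arrest, which had 31.8, 30.0, 30.3 and 20.5 CPM in LPS and 13.4, 23.6, 18.4 and 24.8 CPM in LPS + Tan lungs. LPS sample 4 lay among the LPS + Tan samples, and the other 3 were above all of them (log2 fold change -0.49, SE 0.200, adjusted p = 0.924). Of 11 genes that control the level or activity of MCL1 and BIM, 0 were called, with a median of -0.036, and the lowest p were those of Trib3, a pseudokinase of the integrated stress response (-0.31, SE 0.239, adjusted p = 0.938), and the cell cycle factor E2f1 (0.26, SE 0.229, adjusted p = 0.950). The shares called were 1 of 20, 1 of 16 and 0 in the others, beside 5.12% of all genes.

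**Figure D5:**
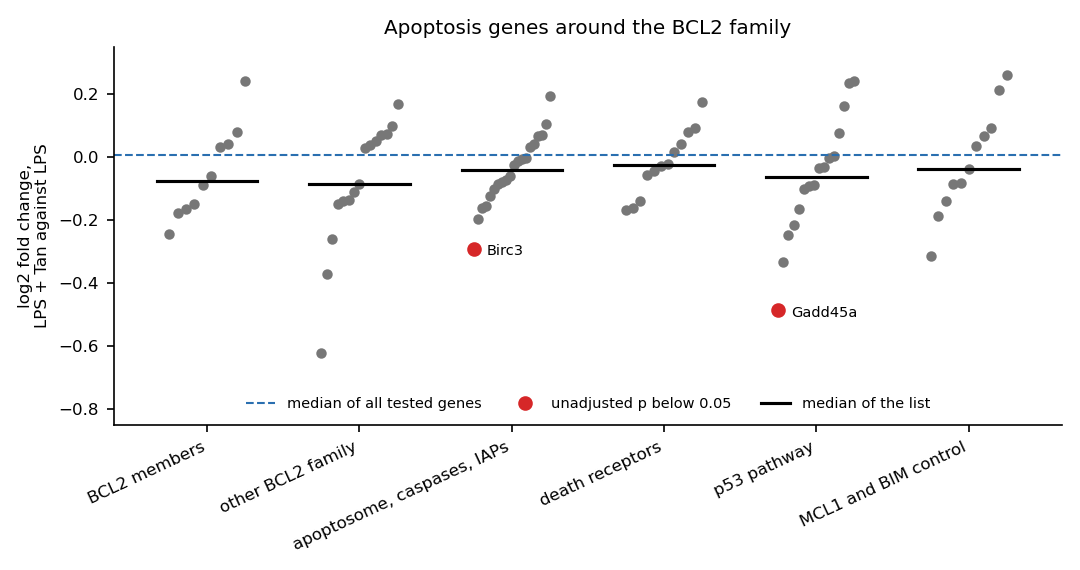
Log2 fold change of LPS + Tan against LPS for each tested gene of the 10 members and of 5 lists of apoptosis genes, with the median of each list (black) and of all tested genes (dashed, 0.007). The genes at an unadjusted p below 0.05 (red) are Birc3 and Gadd45a, both lower in LPS + Tan lungs, and none is a member.

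Last, each member was compared across the 8 samples with the mean log2 CPM of the neutrophil, macrophage, B cell and T and NK cell markers, which gave 40 relations. At an unadjusted p of the permutation test below 0.05, 1 Pearson correlation was found, and 0 passed the Benjamini-Hochberg adjustment over the 40, for Pearson and Spearman alike. With scaling by total counts only, 3 of 40 were below 0.05 before and 0 after adjustment. The relation was between Bax and the macrophage markers, with Pearson's r of 0.745 (permutation p = 0.0358, adjusted 0.925) and Spearman's rho of 0.762 (permutation p = 0.0368, adjusted 0.736) over 8 samples. It was 0.730 without the 2 samples farthest from the median of the marker level, 0.840 within LPS and 0.742 within LPS + Tan samples. For Pmaip1 and the macrophage markers r was -0.673 (permutation p = 0.0710, adjusted 0.925) and rho was -0.762 (permutation p = 0.0368, adjusted 0.736), and r was -0.069 without the 2 farthest samples, so that the pooled r rested on them. Within groups r was -0.923 in the 4 LPS and -0.025 in the 4 LPS + Tan samples.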

How the data were processed

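RNA of 4 LPS and 4 LPS + Tan lung samples was sequenced. The methods give TRIzol and the VAHTS Universal V6 kit, and the labels name another extraction and library kit. The authors deposited raw read counts per gene and FPKM values, which are proportional to count over length within 1% for 17256 of 17256 genes with a count in every sample. The submitters' processing notes name GRCm38 and mm10. For the aligner, the counter and the annotation, names were not given in the sources used here. Samples were grouped by the labels.

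The deposited counts entered edgeR 4.0.16 (R 4.3.3, filterByExpr, TMM scaling, quasi-likelihood test, no covariate), which left 15706 genes, and p was adjusted by the Benjamini-Hochberg method over all of them. Ratios and relations were compared by exact or full permutation tests (scipy 1.17.1). A mean log2 CPM of markers used a prior count of 2. Alternatives were DESeq2 1.42.0, limma 3.58.1 (voom, log2(FPKM + 1) and log2(FPKM + 0.1)), the likelihood ratio test, other scalings and filters, summed Bcl2a1 counts, leaving out each sample, and a block for the replicate number. The scripts were tested on simulated data. Depth was close to equal, and the spread between samples rather than counting error set the precision. Counts of samples of one group differed by 7.84 to 23.0 times the sampling noise, so none was the same library deposited again. The members and gene lists were chosen with earlier results of these data known. Named are all members, the Bcl2a1 copies, and of the other apoptosis lists each gene with an unadjusted p below 0.05 or else the 2 with the lowest p. Markers were read as lists, except 3 named after their values were seen. Sequences and positions are from GENCODE M21, since no protein table was used here. Proteins were not measured in these data.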

Additional observations from a re-analysis of the deposited data

Results flagged for a closer look

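In 28 groups of 4 samples, the most distant sample was compared with the range of its group by Dixon's ratio of gap to range, and 4 groups passed its 95% critical value, where chance gives about 1.4. For Bid, LPS sample 4 was the lowest of its group (ratio 0.91) and LPS + Tan sample 4 the highest of its group (ratio 0.904), at 30.7 and 40.8 CPM. For Bcl2l11, LPS + Tan sample 2 was the highest of its group (ratio 0.859), at 64.1 CPM beside 34.5 to 37.6 in the other 3. For the share of Bcl2a1b in the Bcl2a1 counts, LPS + Tan sample 3 was the lowest of its group (ratio 0.961), at 70.6% beside 75.8% to 76.1%.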

How the results depend on the processing

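The members called at an unadjusted p below 0.05 were 0 of 10, and 1 with total counts only, with limma on log2(FPKM + 1) and with limma on log2(FPKM + 0.1), each time Bbc3. Leaving out 1 sample gave 0 to 2, the genes and samples being those named in the text. No member passed an adjusted p below 0.05 under any of these settings, and the lowest was 0.176 for Bid by edgeR without LPS + Tan sample 4. Of all genes, 451 were higher and 353 lower, and leaving out 1 sample gave 268 to 820 and 212 to 806, with the most without LPS + Tan sample 2 or 4 (761 higher and 727 lower without sample 4) and the fewest without sample 1. No count filter gave 569 lower. Total counts only gave 653 higher and 239 lower. At an adjusted p below 0.05 the counts were 0, 35 with DESeq2, 23 with the edgeR likelihood ratio test, and 0 to 1 with 1 sample left out. At an unadjusted p below 0.05, DESeq2 called 1 of the other BCL2 family genes, Bcl2l15. The causes were not tested.

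Signs that turned were those of values near 0. With the Bcl2a1 copies summed, -0.023 took the place of 0.033. With 1 sample left out, Mcl1 ranged from -0.148 to 0.0023, Bcl2a1b from -0.096 (without LPS sample 2) to 0.126, with -0.015 without LPS + Tan sample 2 and -0.010 without sample 4, Bcl2a1d from -0.170 to 0.080, Bax from -0.025 to 0.084, with -0.0022 without LPS sample 4, and Bcl2l11 from -0.342 to 0.085, with 0.0040 without LPS + Tan sample 3. For the ratio of Bcl2 to Bax, the difference of log2 means was -0.038 without LPS sample 1. It was -0.0041, -0.034 and 0.176 without LPS + Tan sample 2, 3 or 4. The difference for Mcl1 to Pmaip1 ranged from 0.039 to 0.30. That for Bcl2l1 to Bak1 ranged from -0.139 without LPS + Tan sample 2 to 0.038 without LPS + Tan sample 1.

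Samples with the same replicate number did not deviate together (r of 0.123, -0.031, -0.148 and 0.020 for numbers 1 to 4), and not every sample correlated best with its own number. With the replicate block, 0 members were called, and 397 genes were higher and 429 lower. Counts pool splice forms and protein levels are not in these data, so the limits of the intervals bound the summed transcript of each gene only.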
